A study of Mus musculus with 8 samples.

Results

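Heart was compared with kidney, gene by gene, in 4 libraries of total RNA from the mouse: FFPE heart, frozen heart, FFPE kidney and frozen kidney. FFPE stands for fixation in formalin followed by paraffin embedding, the form in which pathology collections keep tissue, and the frozen organs were snap frozen. Each organ thus had 1 library per way of keeping it. The series holds 8 libraries, the other 4 from brain and liver kept in the same ways, and was made to profile frozen and FFPE tissue. The labels give no strain, sex, age or number of animals and say nothing of pooling, so the 2 libraries of an organ may or may not come from different animals, and p-values measure only the spread between libraries. Genes entered on level alone, with a deposited log2 value above 0, which is 1 CPM, in at least 2 of the 4 libraries. Of 27179 genes in the table, 13660 met this rule. Chst9 lay just inside it, with 0.997 and 1.05 CPM in kidney and 0 reads in heart, and Trpc6 just outside, with 0.910 and 1.46 CPM in heart and 0.952 and 0.176 CPM in kidney. A gene expressed in a single organ enters through that organ's libraries and had to differ, so a count or median over a list that holds such genes is a description, set in part by the rule and no support for the list's direction. Members listed that did not enter are stated beside the counts. Levels are in CPM, reads per 1000000 of the library size as the authors scaled it, and a pair of values always gives the FFPE library first and the frozen library second. Differences are heart minus kidney in log2 units, fitted over both preparations with limma and printed with the SE. Genes with an adjusted p (Benjamini-Hochberg, over all 13660 genes) under 0.05 are termed called.

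The heart wall is built mainly from cardiomyocytes, whose sarcomeres slide myosin thick filaments along actin thin filaments when calcium is released from the sarcoplasmic reticulum, and whose mitochondria burn mostly fatty acids. The kidney filters blood at the glomerulus and then recovers salt, water, sugar and amino acids along the nephron, a tube whose proximal tubule, loop of Henle, distal tubule and collecting duct each carry their own transporters. It also makes glucose and renin and activates vitamin D. Both organs are rich in mitochondria, and both hold vessels, fibroblasts and resident macrophages between their main cells.

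The defining markers of each organ matched the labels. Myh6, the main myosin motor of the adult mouse heart, had 14171 and 14325 CPM in heart, against 3.85 and 6.26 CPM in kidney. Slc34a1, the sodium phosphate cotransporter of the proximal tubule, had 0.0758 and 0 CPM in heart, against 958 and 1696 CPM in kidney. In both genes the libraries of the 2 organs stood far apart. Reads assigned to genes numbered 15848065 and 20526813 in heart and 15593121 and 18729510 in kidney. Mitochondrial rRNA took 45.2% and 55.6% of reads in heart and 39.4% and 32.4% in kidney, and nuclear rRNA 11.3% and 15.7% in heart and 1.49% and 26.1% in kidney. A floor of 3 reads, used for genes without reads, stood for 0.227 and 0.292 CPM in heart and 0.136 and 0.176 CPM in kidney. No molecular identifiers are named, so floors cover counting error alone.

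Libraries of the same organ stood apart in 3 respects. First, genes of atrial muscle were present in FFPE heart and nearly missing from frozen heart. Nppa, which encodes atrial natriuretic peptide, had 7173 reads in FFPE heart and 180 in frozen heart. Myl7, the atrial regulatory light chain, had 1590 and 0 reads there, Myl4, the atrial essential light chain, 1959 and 5, and Bmp10, an atrial growth factor, 706 and 0. Summed over 7 atrial markers the level was 998 and 19.8 CPM in heart, against 12.3 and 12.1 CPM in kidney, and only Nppa and Dkk3 passed the level rule. Second, FFPE kidney held reads of fat cells, among them 144 reads of Ucp1, the uncoupling protein of brown fat, against 0 in frozen kidney, and 73 of Adipoq, the adipocyte hormone adiponectin, against 1. The 8 adipocyte markers summed to 8.64 and 7.41 CPM in heart, against 31.0 and 0.644 CPM in kidney. In the last respect Xist, the RNA that silences an X chromosome in female cells, had 4652 and 7 reads in heart and 15389 and 1 in kidney, while the Y-linked helicase gene Ddx3y had 233 and 634 reads in heart and 450 and 525 in kidney. Both FFPE libraries thus held Xist beside Y-linked RNA, and both frozen libraries held Y-linked RNA with Xist near 0. Sex and the number of animals are not given, and the part of these differences in the results was not tested. The plot of these markers by library shows them side by side.

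**Figure D1:**
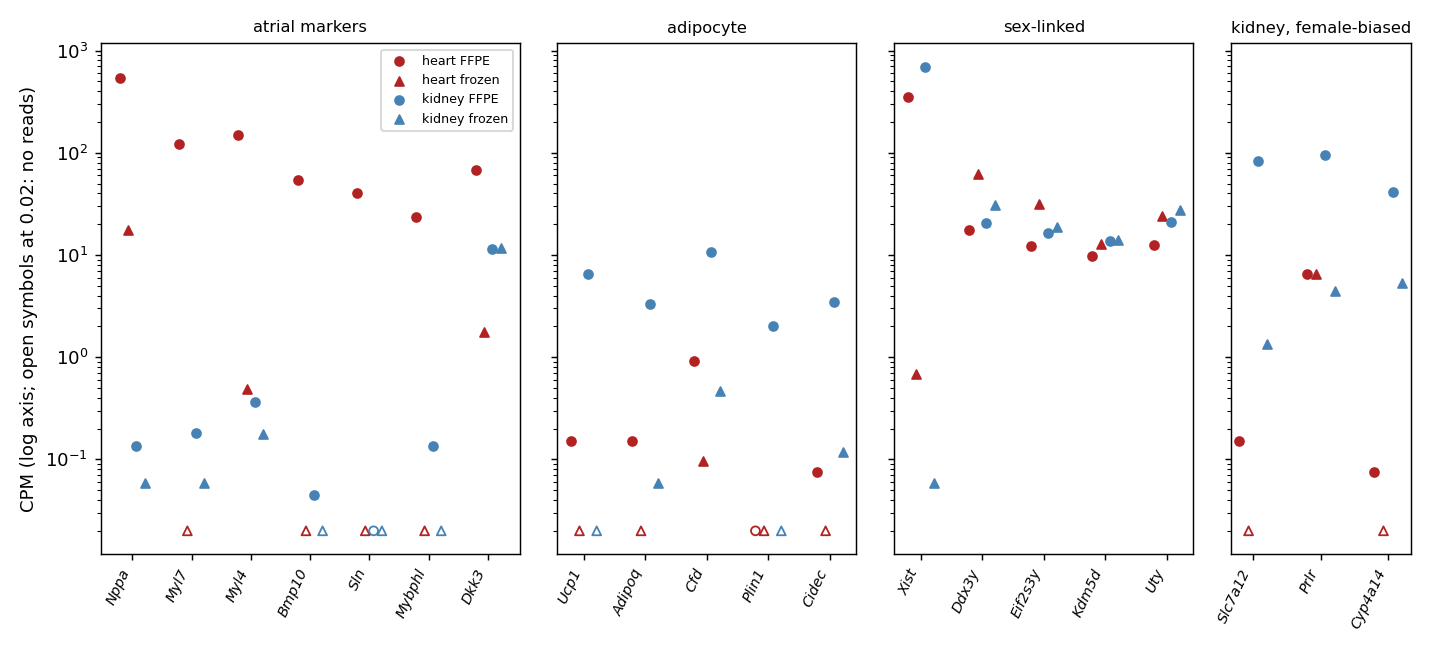
CPM on a log axis of atrial, adipocyte, sex-linked and female-biased kidney genes in FFPE and frozen heart (red) and FFPE and frozen kidney (blue), with open symbols at 0.02 for no reads. Nppa stood at 544 CPM in FFPE heart and 17.5 CPM in frozen heart, and Xist at 353 CPM in FFPE heart and 697 CPM in FFPE kidney against 0.682 and 0.0585 CPM in the frozen libraries.

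Of the 13660 genes, 6295 (46.1%) were called, 2871 (21.0%) higher in heart and 3424 (25.1%) lower (limma, 2 libraries a side, all 8 libraries in the fit). Called genes higher in heart had a median difference of 1.61 log2 units, and those lower in heart a median of -1.94. A difference of at least 3 log2 units (8-fold) was reached by 674 genes higher and 1179 genes lower in heart. Of genes tested 80.4% had the same sign in FFPE and in frozen tissue. Across genes the FFPE and the frozen difference had a Pearson correlation of 0.943, a description over genes that share the libraries. The SD of the FFPE minus the frozen difference was 0.88 log2 units, and 18 genes differed by more than 1 log2 unit in opposite directions. Tested against a difference of 1 log2 unit rather than 0 (limma's treat), 1134 genes (8.30%) were called higher and 1715 (12.6%) lower. The median over all genes was -0.05. Scaling moved it: quantile normalization by 0.17, median centring by 0.15 and leaving out the authors' scaling factors by -0.82, where 1310 genes were called higher and 6924 lower. Small differences shared by many genes therefore hang on the scaling, and their sign without scaling factors is given where it turned.

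**Figure D2:**
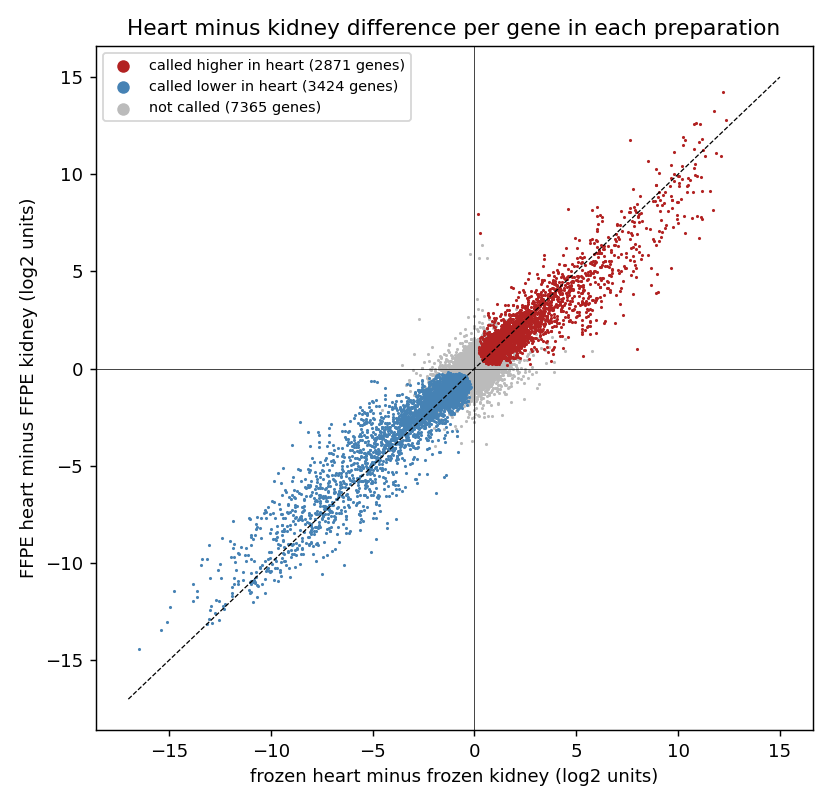
Heart minus kidney difference (log2 units) of each of 13660 genes in frozen tissue (x axis) and in FFPE tissue (y axis), with genes called higher in heart in red, lower in blue and the rest in grey, and the line of equal differences dashed. The 2871 genes called higher lie in the upper right and the 3424 called lower in the lower left, at a correlation of 0.943.

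**Figure D3:**
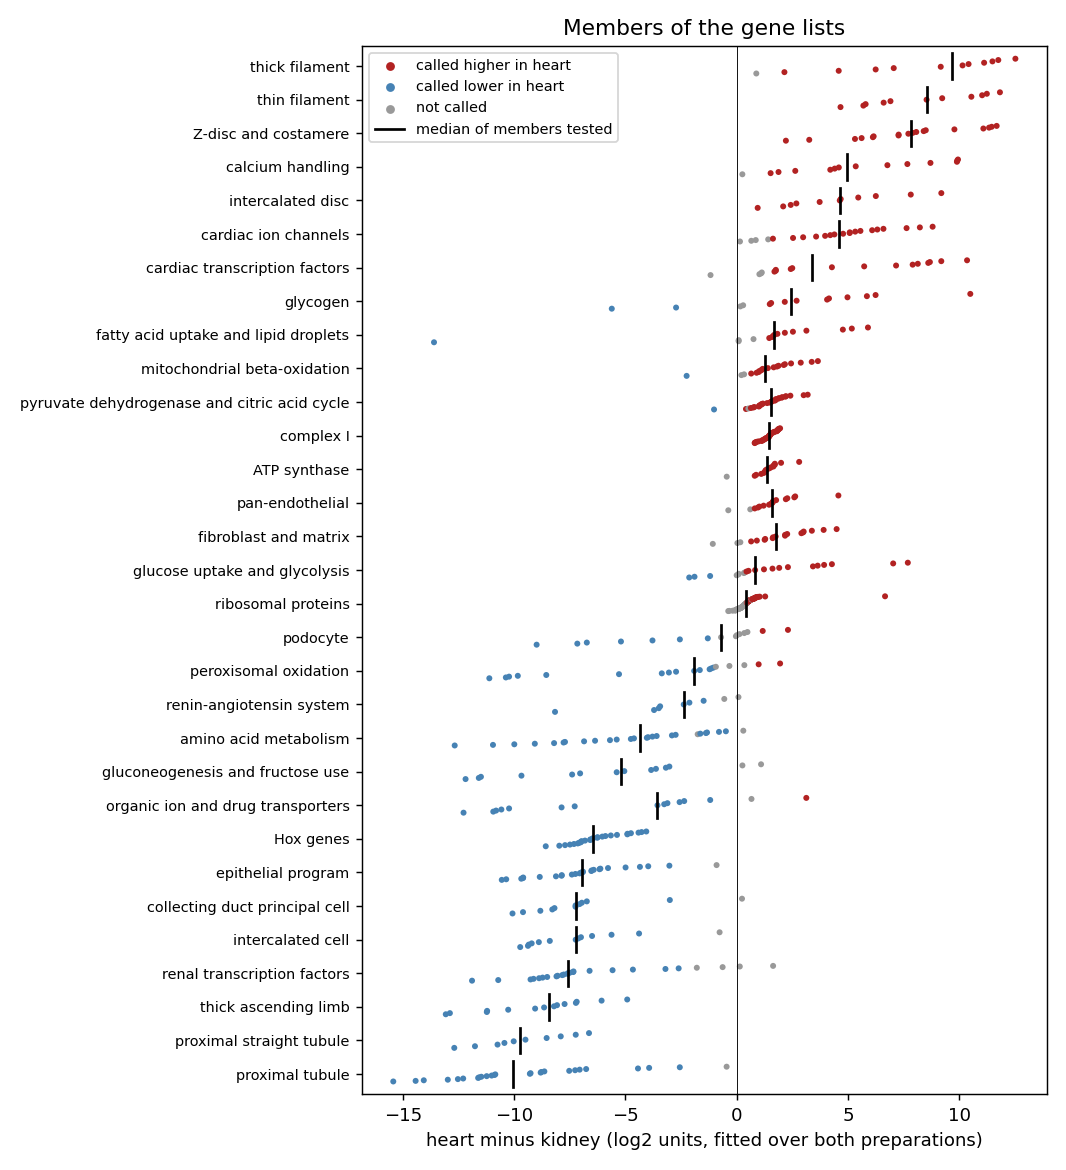
Fitted heart minus kidney difference (log2 units) of each tested member of 31 gene lists, 1 point per gene, red for called higher in heart, blue for called lower, grey for not called, with the list's median as a black bar. Medians ran from 9.66 for the thick filament to -10.07 for the proximal tubule, beside -0.05 over all genes tested.

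The 15 largest positive differences with a gene symbol were in genes of muscle. Ckmt2 (chr13:91853386-91876923, the RefSeq gene span on GRCm38, the build named mm10), the mitochondrial creatine kinase of striated muscle, led them with 435 and 681 CPM in heart, against 0 and 0.117 CPM in kidney and a difference of 13.21 ± 1.17 (limma adjusted p = 3.40e-05). Mb (chr15:77015487-77050668), myoglobin, which stores oxygen, had 2425 and 3533 CPM in heart, against 0.317 and 0.644 CPM in kidney (12.58 ± 0.86). Myl2, the regulatory light chain of ventricular myosin, had 1566 and 3607 CPM in heart, against 0.136 and 0.995 CPM in kidney (12.53 ± 0.92). All of these were high in both heart libraries and at or under about 1 CPM in both kidney libraries. Actc1 (11.83), Myl3 (11.76), Xirp2 (11.68), Myh6 (11.49), Myoz2 (11.46), Actn2 (11.34), Tnni3 (11.24), Mybpc3 (11.12), Csrp3 (11.09) and Tnnt2 (11.03) encode parts of the sarcomere or its anchors. Alpk2, a kinase of the alpha family, had a difference of 11.52 ± 0.99 with 1 read in FFPE kidney and 0 in frozen kidney. Mhrt (chr14:54968787-54974349), a long noncoding RNA transcribed from the Myh7 locus, had 1047 and 389 reads in heart, against 0 and 0 reads in kidney. It was at least 355-fold higher in heart, with kidney set at its floor of 3 reads per library. Mhrt overlaps Myh7 on the opposite strand in the annotation and the strand setting of the counting is not given, so reads of these genes may not be told apart.

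The 15 largest negative differences were in genes of the nephron, most of them of the proximal tubule. Kap (chr6:133849855-133853667), the kidney androgen-regulated protein of the proximal tubule, had 0.0758 and 0 CPM in heart, against 2479 and 4381 CPM in kidney (-15.43 ± 1.12, limma adjusted p = 1.25e-05). Acsm2, a medium-chain acyl-CoA synthetase of the same cells, had 0.0758 and 0 CPM in heart, against 1278 and 2113 CPM in kidney (-14.43 ± 0.68). Umod (chr7:119462708-119479262), uromodulin, the most abundant protein of normal urine and a product of the thick ascending limb, had 0.227 and 0 CPM in heart, against 723 and 1329.6 CPM in kidney (-13.07 ± 1.46). Both heart libraries together held 1 to 3 reads of each of these genes, and fitted differences of such genes depend on the 0.5 reads added to each count. Slc34a1 (-14.06), Slc27a2 (-13.60), Slc12a1 (-12.89), Cyp2j5 (-12.69) and Slc22a12 (-12.53) likewise had between 1 and 3 reads in heart. No heart read was assigned to Pdzk1, a scaffold for brush border transporters, Cltrn, collectrin, which carries amino acid transporters to the brush border, Ugt3a2, a glycosyltransferase, Klk1, the tissue kallikrein, Slc7a13, an amino acid transporter, or Akr1c21, an aldo-keto reductase. With heart set at its floor they were at least 1504-fold (Pdzk1), 1349.8-fold (Cltrn), 1321-fold (Ugt3a2), 1150.0-fold (Klk1), 1103-fold (Slc7a13) and 1029-fold (Akr1c21) lower in heart. In bulk tissue fewer cells of a type and less RNA per cell cannot be told apart, here and below.

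**Figure D4:**
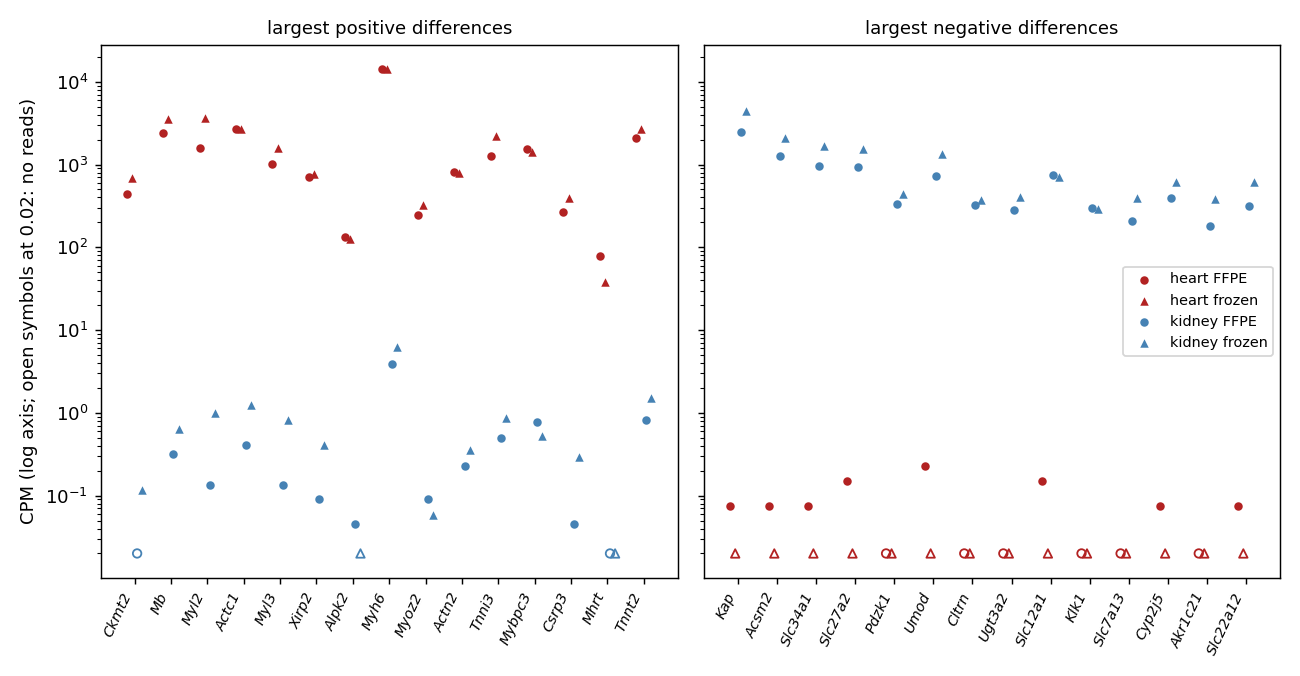
CPM on a log axis in FFPE and frozen heart (red) and FFPE and frozen kidney (blue) for the 15 genes with the largest positive difference (left) and 14 of the 15 with the largest negative difference (right), open symbols at 0.02 marking no reads. Myh6 reached 14171 and 14325 CPM in heart and Kap 2479 and 4381 CPM in kidney. The genes were picked by the size of their difference, so the gap between the organs follows from that choice.

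Promoters of the leading genes were read from RefSeq (GRCm38.p6) and searched for motifs on both strands, the TATA letters on the gene's own strand alone. The 250 bases before the start of 4 heart genes and 2 kidney genes follow, 5′ to 3′ on the gene's strand, to show the motifs where they occur beside a large difference. Capitals mark the motif: MEF2, the site of the muscle factors of that name, in Mybpc3 and Myoz2, CArG, the site of serum response factor, in Actc1 and Myl3, HNF1 in Cltrn and TATAAA in Kap. The windows are chr2:91117894-91118143 (+ strand) for Mybpc3, myosin-binding protein C, chr3:123034988-123035237 (- strand) for Myoz2, calsarcin of the Z-disc, chr2:114052876-114053125 (- strand) for Actc1, cardiac actin, chr9:110763428-110763677 (+ strand) for Myl3, the ventricular essential light chain, chrX:164089937-164090186 (+ strand) for Cltrn, and chr6:133853668-133853917 (- strand) for Kap.
Mybpc3: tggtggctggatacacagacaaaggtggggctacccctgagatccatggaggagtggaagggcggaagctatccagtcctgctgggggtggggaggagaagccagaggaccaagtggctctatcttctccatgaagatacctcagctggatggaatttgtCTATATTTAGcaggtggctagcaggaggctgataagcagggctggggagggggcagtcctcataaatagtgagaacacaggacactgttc
Myoz2: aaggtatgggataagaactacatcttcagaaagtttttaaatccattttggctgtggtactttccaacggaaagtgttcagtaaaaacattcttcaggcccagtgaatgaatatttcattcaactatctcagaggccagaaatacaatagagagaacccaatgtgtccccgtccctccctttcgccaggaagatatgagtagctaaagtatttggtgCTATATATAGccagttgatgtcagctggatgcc
Actc1: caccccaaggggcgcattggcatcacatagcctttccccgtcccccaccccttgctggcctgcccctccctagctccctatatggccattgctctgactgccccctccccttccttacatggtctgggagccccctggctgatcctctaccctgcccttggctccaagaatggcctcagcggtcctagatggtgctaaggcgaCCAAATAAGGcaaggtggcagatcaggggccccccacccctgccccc
Myl3: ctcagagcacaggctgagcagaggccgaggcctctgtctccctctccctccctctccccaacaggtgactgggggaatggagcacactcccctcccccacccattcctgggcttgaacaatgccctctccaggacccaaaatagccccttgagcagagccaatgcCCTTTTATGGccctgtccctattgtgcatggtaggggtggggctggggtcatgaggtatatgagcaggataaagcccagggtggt
Cltrn: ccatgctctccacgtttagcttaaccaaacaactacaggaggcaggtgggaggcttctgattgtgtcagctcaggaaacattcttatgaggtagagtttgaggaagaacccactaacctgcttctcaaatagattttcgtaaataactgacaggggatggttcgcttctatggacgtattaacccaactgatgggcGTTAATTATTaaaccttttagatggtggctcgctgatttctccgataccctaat
Kap: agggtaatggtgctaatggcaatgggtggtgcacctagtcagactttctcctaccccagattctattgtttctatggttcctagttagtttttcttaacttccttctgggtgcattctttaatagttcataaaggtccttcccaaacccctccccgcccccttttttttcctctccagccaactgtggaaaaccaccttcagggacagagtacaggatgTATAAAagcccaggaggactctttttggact

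The motifs began 90, 33, 47, 85, 54 and 31 bases before the start in that order. Among 97 genes of the contractile lists 69 had a promoter in the table, and 8 of them (11.6%) held a MEF2 motif in the 300 bases from 250 before to 50 after the start: Fhl2, Xirp2, Ttn, Mybpc3, Casq2, Myoz2, Myom3 and Synpo2l. The MEF2 share was 2.41% of the 10532 genes tested that had a promoter and 3.70% of all 27025 genes in the table. CArG was likewise in 8 (11.6%), namely Fhl2, Nebl, Actc1, Acta1, Myl3, Myl7, Ldb3 and Myom1, against 1.54% of genes tested and 1.81% of all genes. In the nephron lists, with 111 promoters for 150 genes, MEF2 was in 5 (4.50%) and CArG in 1 (0.901%). The HNF1 letters GTTAATNATT were in 0 contractile promoters and in 3 nephron promoters (2.70%: Atp6v0a4, Cdhr2 and Cltrn), against 0.323% of genes tested and 0.470% of all genes. The HNF4 letters CAAAGTCCA were in 1 contractile promoter (1.45%) and 1 nephron promoter (0.901%), against 0.503% of genes tested and 0.555% of all genes. The letters TCAAGGTCA of estrogen-related receptors were in 1 contractile promoter, 0 nephron promoters and 1 of 74 respiratory chain promoters (1.35%). They were in 0.294% of genes tested and 0.466% of all genes. TATAAA was in 7 contractile (10.1%) and 15 nephron promoters (13.5%), against 5.77% of genes tested and 9.77% of all genes. Over all genes MEF2 overlapped TATAAA in 116 genes and CArG overlapped it in 12, none of them contractile. A match is a description of letters, not a bound site, and no test was made of these shares.

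Genes of the contractile machinery were high in heart. Of 12 thick filament genes 11 were called higher and 0 lower, of 11 thin filament genes tested 11, and of 18 genes of the Z-disc and its membrane anchors 18. Over all genes tested 21.0% were called higher, but 4 of the 12, 4 of the 11 and 8 of the 18 entered through heart libraries alone, so nothing is read from that comparison. Their median differences were 9.66, 8.53 and 7.81 log2 units, beside -0.05 over all genes. Ttn, titin, the spring that spans the sarcomere, had 44118 and 31595 CPM in heart, against 45.3 and 16.3 CPM in kidney (10.42 ± 0.33, limma adjusted p = 5.15e-07). Myh7, the slow myosin of the fetal and stressed mouse heart, had 109 and 99.1 CPM in heart, against 0.136 and 0.176 CPM in kidney (9.17 ± 0.62). Its level was high in both heart libraries and far below that of Myh6, a gene of like length. Myom3, a protein of the M-band of slow fibres, had 1.14 and 1.66 CPM in heart, against 0.725 and 0.761 CPM in kidney and was not called (limma adjusted p = 0.291). Among thin filament genes the troponins Tnni3, Tnnt2 and Tnnc1 differed by 11.24, 11.03 and 9.24, and Lmod2, which lengthens the filament, by 10.55. Acta1, skeletal actin, had 97.2 and 32.7 CPM in heart, against 0.136 and 0.117 CPM in kidney (8.53 ± 0.64), with FFPE heart the higher heart library. Tnni1, the slow troponin I of the fetal heart, had 2 and 0 reads in heart and 0 and 0 in kidney and did not enter. At the Z-disc the stretch-sensing Tcap and Cavin4 of the caveolae differed by 9.78 and 8.50, Ankrd1, a titin-binding stress gene, by 7.27, and Des, desmin, by 6.16. Pdlim5 and Cryab, a chaperone that kidney cells express too, had the smallest differences of that list, 2.21 ± 0.18 and 3.26 ± 0.27.

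Skeletal muscle genes were nearly missing. Of 9 skeletal markers 3 entered and 1, Mybpc2, a fast myosin-binding protein, was called (12.9 and 4.68 CPM in heart, against 0.227 and 0.117 CPM in kidney, 5.36 ± 0.90). Mybpc2 entered through heart libraries alone, and of the 2 that entered with both organs 0 were called. The 9 markers summed to 28.8 and 7.12 CPM in heart, against 4.12 and 0.527 CPM in kidney, and their part in the contractile genes was not tested. Of 8 natriuretic peptide genes 7 entered, 2 of them through heart libraries alone, and 4 were higher in heart and 1 lower (median 1.14). Over all genes tested 21.0% were called higher and 25.1% lower. Nppa had 544 and 17.5 CPM in heart, against 0.136 and 0.0585 CPM in kidney (9.70 ± 1.40, limma adjusted p = 5.38e-04), and without FFPE heart, where atrial genes were present, 6.98 (adjusted p = 0.00856). Nppb, made by ventricle as well, had 36.9 and 54.5 CPM in heart, against 0 and 0.117 CPM in kidney (9.61 ± 1.21) and differed little between the heart libraries. Corin, the protease that cuts the Nppa precursor, had 135 and 110.0 CPM in heart, against 6.75 and 2.69 CPM in kidney (4.83 ± 0.46). Of the receptors Npr2 was called higher (1.14 ± 0.23), whereas Npr3 had 29.6 and 38.2 CPM in heart, against 19.1 and 23.2 CPM in kidney and was not called. Furin, a protease of the secretory pathway, was lower in heart (-1.07 ± 0.27), but not called at -0.61 without frozen heart (adjusted p = 0.0853) and -0.65 without frozen kidney (adjusted p = 0.135) (limma).

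Calcium handling and excitation genes were high in heart too. Of 14 calcium handling genes tested 13 were called higher and 0 lower (median 4.97), and of 22 ion channel genes 18 higher and 0 lower (median 4.59), with 3 and 10 genes that entered through heart libraries alone. Over all genes tested 21.0% were called higher, and given that entry nothing is read from the comparison. Ryr2, the channel that releases calcium from the sarcoplasmic reticulum, had 2774 and 2169.8 CPM in heart, against 6.93 and 4.92 CPM in kidney (8.71 ± 0.30, limma adjusted p = 5.86e-07). Atp2a2, the pump that takes it back, had 5884 and 7562 CPM in heart, against 268 and 286 CPM in kidney (4.59 ± 0.21), and its inhibitor Pln, phospholamban, had 1479 and 2136 CPM in heart, against 2.18 and 1.52 CPM in kidney (9.91 ± 0.64). Kidney thus held the pump at 268 and 286 CPM and its inhibitor near 2 CPM. Casq2 and Hrc, which bind calcium in the store, differed by 9.95 and 9.90, and Cacna1c, the L-type calcium channel, by 5.35. Slc8a1, the sodium calcium exchanger that the distal nephron uses as well, had 385 and 382 CPM in heart, against 401 and 258 CPM in kidney and was not called (limma adjusted p = 0.278). Its libraries overlapped between the organs. Fkbp1b had 6 and 5 reads in heart and 2 and 1 in kidney and did not enter. The potassium channels Kcnj3, Kcnd2 and Kcnj11 differed by 8.81, 7.63 and 6.60. Hcn4, the pacemaker channel of the sinus node, had 7.58 and 4.58 CPM in heart, against 0.227 and 0.0585 CPM in kidney (5.33 ± 0.66), with reads in both heart libraries and kidney near its floor. The 4 channel genes that were not called included Kcnq1, a potassium channel of heart and proximal tubule, with 23.7 and 16.6 CPM in heart, against 12.8 and 12.3 CPM in kidney. At the intercalated disc, which joins cardiomyocytes end to end, 11 of 11 genes were called higher (median 4.63), 2 of which entered through heart libraries alone. Gja1, connexin 43, had 242 and 363 CPM in heart, against 7.43 and 6.03 CPM in kidney (5.46 ± 0.26), and Dsp, desmoplakin, 1024 and 1036 CPM in heart, against 62.8 and 25.9 CPM in kidney (4.67 ± 0.84). Popdc2, a membrane protein of the disc, had the largest difference there (121 and 122 CPM in heart, against 0.272 and 0.117 CPM in kidney, 9.20 ± 0.56).

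Transcription factors known for building each organ in the embryo differed between heart and kidney. Of 20 cardiac factors 18 entered, 7 of them through heart libraries alone, and 14 were called higher and 0 lower (median 3.39). Of 28 renal factors 25 entered, 18 of them through kidney libraries alone, and 21 were called lower and 0 higher (median -7.59, or -5.58 with genes without heart reads at their bound). Over all genes tested 21.0% were called higher and 25.1% lower, but with so many members entered through 1 organ nothing is read from that comparison. Tbx20 had 113 and 90.1 CPM in heart, against 0.181 and 0 CPM in kidney (10.35 ± 1.00, limma adjusted p = 5.65e-05), Gata4 54.4 and 43.1 CPM in heart, against 0.136 and 0.0585 CPM in kidney (8.68 ± 0.48) and Nkx2-5 18.4 and 16.4 CPM in heart, against 0.0453 and 0 CPM in kidney (8.61 ± 1.10). These factors act together on cardiac genes, and their highest level in a kidney library was 0.181 CPM, that of Tbx20. Hand2 (8.14), Tbx5 (7.91), Irx4 (7.16), a ventricular factor, and Smyd1 (9.19), a muscle histone methyltransferase, showed differences of like size. Mef2a, Mef2c and Mef2d, which kidney expressed too, differed by 1.70, 2.50 and 1.76, and Srf, serum response factor, by 1.76. Of the cardiac factors that entered 4 were not called, and Isl1, a factor of cardiac progenitors, had 5 and 0 reads in heart and 4 and 0 in kidney.

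In kidney Hnf4a, the factor that sets the proximal tubule program, had 334 and 401 CPM against 2 and 0 reads in heart (-11.89 ± 0.72). Pax8 and Pax2, which start the renal lineage, had 0.0758 and 0 CPM in heart, against 50.5 and 41.5 CPM in kidney for Pax8 and 0 and 0 CPM in heart, against 20.8 and 11.9 CPM in kidney for Pax2. Tfcp2l1 of the collecting duct differed by -9.13 ± 0.27, and Emx2 and Pou3f3 by -8.88 and -8.72. Foxi1, which makes intercalated cells, had 0 and 0 reads in heart and 7.89 and 8.66 CPM in kidney. Of the 4 that were not called Wt1, a factor of the podocyte, had 4.25 and 3.22 CPM in heart, against 8.75 and 3.80 CPM in kidney, with overlapping libraries. Hox genes record position along the body axis. Of 39 Hox genes 27 entered, the 27 were called lower in heart (median -6.47, or -5.38 with genes at their bound), and 12 did not enter. All 27 entered through both kidney libraries, at 1.17 CPM or more there, so a count over them says little beyond the rule. The list summed to 5.16 and 0.780 CPM in heart, against 275 and 202 CPM in kidney. Hoxd8 had 0.379 and 0.0975 CPM in heart, against 29.1 and 26.6 CPM in kidney and Hoxb4 1.59 and 0.0975 CPM in heart, against 20.1 and 10.7 CPM in kidney. Hoxb8 and Hoxa7 had 0 reads in heart, against 20.1 and 13.5 CPM in kidney for Hoxb8 and 10.6 and 10.9 CPM for Hoxa7. FFPE kidney was the higher kidney library for Hoxb4, and FFPE heart held 21 reads of it against 1 in frozen heart.

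Each segment of the nephron contributed genes lower in heart. In the proximal tubule 25 of 26 genes were called lower and 0 higher (median -10.07, or -8.79 with genes at their bound, the second value here and below), in its straight end 10 of 10 (-9.76, -8.35), in the thick ascending limb 14 of 14 that entered from 15 listed (-8.43, -7.71), in the distal convoluted tubule 9 of 12 with 1 higher (-4.23), in principal cells 11 of 12 (-7.24, -5.65) and in intercalated cells 12 of 13 that entered from 14 listed (-7.24, -6.76). Over all genes tested 25.1% were called lower, but 18 proximal, 9 straight, 12 thick limb, 4 distal, 9 principal and 12 intercalated cell genes entered through kidney libraries alone, so nothing is read from that comparison. Lrp2, megalin, the receptor that takes filtered protein back, had 1.36 and 1.56 CPM in heart, against 2837 and 3393 CPM in kidney (-11.01 ± 0.46, limma adjusted p = 1.04e-06). Slc5a2, the glucose transporter of the early proximal tubule, had 0.0758 and 0 CPM in heart, against 111 and 170.1 CPM in kidney (-10.85 ± 0.80), and Miox, which breaks down inositol, 0.303 and 0 CPM in heart, against 306 and 441 CPM in kidney (-11.48 ± 1.33). Both kidney libraries were high and both heart libraries at or near 0. Slc17a3, a urate and phosphate transporter, had no heart read and was at least 836-fold lower in heart. Aqp1, the water channel of proximal tubule and of capillary endothelium, had 199 and 155 CPM in heart, against 206 and 280.2 CPM in kidney and was not called. Dab2 and Slc7a7 had the smallest called differences of the list, -2.56 ± 0.21 and -3.94 ± 0.67. In the straight tubule Slc7a13 had 207 and 392 CPM in kidney, Acsm3 0.152 and 0 CPM in heart, against 208 and 537 CPM in kidney (-11.76 ± 0.78) and Slc22a7, an organic anion transporter, 55.1 and 99.2 CPM in kidney and 0 reads in heart. The frozen kidney was the higher library for each of these.

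In the thick ascending limb Slc12a1, the sodium potassium chloride cotransporter that furosemide blocks, had 0.152 and 0 CPM in heart, against 749 and 711 CPM in kidney (-12.89 ± 1.61, limma adjusted p = 2.39e-04). Kcnj1, the channel that returns potassium to the lumen, had 0 reads in heart and 108 and 98.7 CPM in kidney, at least 400.3-fold lower in heart. Egf, which this segment makes in quantity, had 7.96 and 5.17 CPM in heart, against 899.9 and 989 CPM in kidney (-7.19 ± 0.25). Distal convoluted tubule genes included Slc12a3, the thiazide-sensitive cotransporter, with 0.607 and 0.0975 CPM in heart, against 351 and 299 CPM in kidney (-10.04 ± 0.75), and the calcium carriers Calb1 (-8.76 ± 0.69) and S100g (-10.31 ± 0.85). The exception was Slc41a3, a magnesium transporter, which was higher in heart (26.1 and 32.0 CPM in heart, against 1.31 and 1.17 CPM in kidney, 4.51 ± 0.37). Of the kinases that act on chloride cotransporters Wnk1 had 518 and 451 CPM in heart, against 474 and 332 CPM in kidney and was not called, whereas Wnk4 was lower in heart (-3.66 ± 0.40). In principal cells Aqp2, the water channel under vasopressin, had 0 reads in heart and 60.6 and 35.5 CPM in kidney, at least 179.7-fold lower in heart. Hsd11b2, which shields the mineralocorticoid receptor from glucocorticoids, was at least 129.6-fold lower. Scnn1a, a subunit of the epithelial sodium channel, had 0.607 and 0.195 CPM in heart, against 57.4 and 48.6 CPM in kidney (-7.06 ± 0.45). Aqp4 had 3.34 and 3.02 CPM in heart, against 66.1 and 10.1 CPM in kidney (-3.01 ± 0.50), with FFPE kidney well above frozen kidney. In intercalated cells, which secrete acid or base, Atp6v0a4 of the proton pump had 0.531 and 0 CPM in heart, against 118 and 105 CPM in kidney (-9.38 ± 0.79) and Rhcg, an ammonia channel, 37.6 and 35.3 CPM in kidney with 0 reads in heart. Slc4a1, the anion exchanger of intercalated and red blood cells, had 16.6 and 8.19 CPM in heart, against 20.7 and 19.2 CPM in kidney and was not called. Urothelium markers, 6 in all, did not enter and summed to 1.14 and 0.585 CPM in heart, against 6.75 and 1.81 CPM in kidney.

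Podocytes, the cells of the filter, gave a mixed list. Of 15 genes 7 were called lower, 2 higher and 6 were not called (median -0.70), beside 25.1% of all genes lower and 21.0% higher. Through kidney libraries alone 2 of the 15 entered. Nphs1, nephrin of the slit diaphragm, had 0.152 and 0 CPM in heart, against 15.5 and 12.2 CPM in kidney (-7.16 ± 0.72). The chains of glomerular basement membrane collagen Col4a3 and Col4a4 differed by -5.20 ± 0.49 and -3.78 ± 0.40, and Npnt, nephronectin, by -6.74 ± 0.43. Plce1, a phospholipase, and Clic5, a chloride intracellular channel protein, were higher in heart, with 48.1 and 40.4 CPM in heart, against 12.0 and 6.61 CPM in kidney for Plce1 (2.30 ± 0.27) and 146 and 154 CPM in heart, against 72.1 and 61.4 CPM in kidney for Clic5 (1.17 ± 0.23). The general program of epithelia had 25 of 26 genes lower in heart and 0 higher (median -6.96, -6.15 at bounds), 24 of which entered through kidney libraries alone. Cdh16, the kidney cadherin, had 0.379 and 0.682 CPM in heart, against 224 and 290.3 CPM in kidney (-8.85 ± 1.29), Epcam 0.0758 and 0.0975 CPM in heart, against 31.7 and 28.3 CPM in kidney (-7.86 ± 0.90) and Cldn2, the leaky claudin of the proximal tubule, 0.152 and 0 CPM in heart, against 135 and 155 CPM in kidney (-10.56 ± 0.60). Cdhr5, a brush border cadherin, had 0 reads in heart and 44.7 and 71.2 CPM in kidney, at least 219-fold lower in heart. Transporters of drugs and organic ions had 13 of 15 lower and 1 higher (median -3.56), with 7 that entered through kidney libraries alone. Slc22a6, the main uptake carrier for organic anions, had 0 reads in heart and 143 and 318 CPM in kidney, at least 827-fold lower in heart, and Slc22a2, a carrier of organic cations, 0.0758 and 0 CPM in heart, against 67.7 and 118 CPM in kidney (-10.23 ± 0.72). Abcb1a, P-glycoprotein of vessel walls, was higher in heart, with 18.4 and 17.6 CPM in heart, against 2.54 and 1.64 CPM in kidney (3.13 ± 0.56).

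Kidney hormone systems were lower in heart as well. Of 9 genes of the renin-angiotensin system tested 7 were called lower and 0 higher (median -2.38), beside 25.1% of all genes lower. Through kidney libraries alone 1 of the 9 entered, and of the 8 that entered with both organs 6 were lower. Ren1, renin, had 0 reads in heart and 18.4 and 8.25 CPM in kidney, at least 47.7-fold lower in heart. Agt, angiotensinogen, had 0.986 and 0.877 CPM in heart, against 11.3 and 14.4 CPM in kidney (-3.71 ± 0.45), and Ace 36.9 and 43.7 CPM in heart, against 83.0 and 152 CPM in kidney (-1.49 ± 0.28). Heart thus held the converting enzyme without renin reads. The angiotensin receptor gene Agtr1a was not called (11.1 and 11.6 CPM in heart, against 17.2 and 16.4 CPM in kidney). A further 3 of the 12 listed did not enter. Of 7 genes of vitamin D, klotho and erythropoietin 6 entered, 3 of them through kidney libraries alone, and 5 were lower in heart (median -6.49). Kl, klotho, the partner of the receptor for FGF23, had 0.152 and 0.195 CPM in heart, against 381 and 432 CPM in kidney (-10.88 ± 0.88), and Cyp24a1, which degrades vitamin D, 0.0758 and 0 CPM in heart, against 31.0 and 29.0 CPM in kidney (-8.65 ± 0.80). Cyp27b1, which activates it, had 0.227 and 0.0975 CPM in heart, against 1.27 and 1.35 CPM in kidney (-2.76 ± 0.73), but was not called at -2.26 without frozen heart (adjusted p = 0.0946), -2.90 without FFPE kidney (adjusted p = 0.0761) and -2.62 without frozen kidney (adjusted p = 0.111) (limma). Epo, erythropoietin, had 0 reads in heart and 2 and 1 in kidney.

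Genes known to differ between male and female mouse kidney include Kap. The 8 genes known as higher in males were lower in heart (median -10.34, -10.19 at bounds) and summed to 32.2 and 30.0 CPM in heart, against 3561 and 7145 CPM in kidney. Over all genes tested 25.1% were called lower, but 5 of the 8 entered through kidney libraries alone, so nothing is read from that comparison. Cyp4b1 had 13.6 and 12.2 CPM in heart, against 318 and 1030.3 CPM in kidney and Slco1a1 0 and 0.195 CPM in heart, against 73.0 and 195 CPM in kidney, each higher in frozen than in FFPE kidney. The genes known as higher in females went the other way between the kidney libraries: Slc7a12 had 0.152 and 0 CPM in heart, against 82.8 and 1.35 CPM in kidney, Cyp4a14 0.0758 and 0 CPM in heart, against 41.1 and 5.27 CPM in kidney and Prlr, the prolactin receptor, 6.52 and 6.53 CPM in heart, against 95.8 and 4.45 CPM in kidney. Cyp4a14 was called lower in heart (-7.63 ± 0.61), also without FFPE kidney (-6.63). Slc7a12 was called lower in heart (-6.79 ± 1.45), but not without FFPE kidney, at -4.17 (limma adjusted p = 0.0885). Prlr was not called, and without FFPE kidney its difference was 0.50. Of these 3 female-biased genes 2 entered through kidney libraries alone. Kap kept its call without either kidney library, at -15.81 without FFPE kidney and -15.06 without frozen kidney. The part of sex in the other differences was not tested.

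Genes of fuel use differed by pathway. In mitochondrial beta-oxidation, which breaks fatty acids down, 17 of 20 genes were called higher in heart and 1 lower (median 1.29), beside 21.0% of all genes higher and 25.1% lower. Through heart libraries alone 1 of the 20 entered, and of the 19 that entered with both organs 16 were higher and 1 lower. Without the authors' scaling factors 9 of the 20 were higher and 2 lower, with a median of 0.47. In peroxisomal oxidation 14 of 19 were lower and 2 higher (median -1.91), and 5 entered through kidney libraries alone. The count of genes higher there was 1 without scaling factors, 1 without FFPE heart, 1 without FFPE kidney. Hadha and Hadhb, the trifunctional protein that runs the last steps on long chains, had 473 and 723 CPM in heart, against 76.4 and 82.7 CPM in kidney for Hadha (2.88 ± 0.16, limma adjusted p = 3.81e-06) and 245 and 354 CPM in heart, against 24.6 and 32.8 CPM in kidney for Hadhb (3.37 ± 0.15). Acadvl, the very long-chain dehydrogenase, differed by 2.17 ± 0.16 and Acaa2, the thiolase, by 2.44 ± 0.18. Acadm, the medium-chain dehydrogenase, had 346 and 569.7 CPM in heart, against 330.2 and 445 CPM in kidney and was not called. Cpt1a, the carnitine palmitoyltransferase of liver and kidney, was the gene lower in heart, with 36.6 and 28.8 CPM in heart, against 135 and 177 CPM in kidney (-2.25 ± 0.20), and Cpt1b, the muscle form, had 5.38 and 4.97 CPM in heart, against 0.634 and 0.234 CPM in kidney (3.65 ± 0.61). The Cpt1b level in heart rested on 71 and 51 reads. RefSeq also annotates a readthrough gene, Gm44502, over Cpt1b and its neighbour Chkb, and how reads in shared exons were counted is not given. Among peroxisomal genes Dao, D-amino acid oxidase, had 0 reads in heart and 71.8 and 127 CPM in kidney, and Ehhadh, the peroxisomal bifunctional enzyme, had 4.93 and 6.92 CPM in heart, against 169 and 313 CPM in kidney (-5.29 ± 0.25). Cat, catalase, differed by -1.91 ± 0.16. Crat, carnitine acetyltransferase, which mitochondria share, was higher in heart (1.95 ± 0.17). Uptake and storage of fatty acids had 11 of 15 genes that entered, from 16 listed, higher and 1 lower (median 1.69). Fabp3, the heart fatty acid binding protein, had 464 and 894 CPM in heart, against 8.61 and 13.5 CPM in kidney (5.90 ± 0.30), Lpl, lipoprotein lipase, 1786 and 2860.4 CPM in heart, against 353 and 435 CPM in kidney (2.53 ± 0.23) and Cd36, a fatty acid receptor, 578 and 978 CPM in heart, against 117 and 239.9 CPM in kidney (2.16 ± 0.42). The gene lower in heart was Slc27a2, the transporter of kidney and liver. Fat cells express Lpl and Cd36 too, FFPE kidney held adipocyte reads, and their part in these values was not tested.

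Genes of sugar use differed by pathway as well. Glucose uptake and glycolysis had 13 of 21 genes higher in heart and 3 lower (median 0.83), and glucose production with fructose use had 12 of 14 lower and 0 higher (median -5.22), with 5 that entered through kidney libraries alone. In glycolysis 1 gene entered through heart libraries alone. Over all genes tested 21.0% were called higher and 25.1% lower. Hk2, the muscle hexokinase, had 213 and 238 CPM in heart, against 3.72 and 0.761 CPM in kidney (7.03 ± 0.52, limma adjusted p = 1.35e-05) and Slc2a4, the insulin-responsive transporter, 118 and 104 CPM in heart, against 9.15 and 8.54 CPM in kidney (3.64 ± 0.43). Slc2a1, the basal transporter, was lower in heart with 4.63 and 4.09 CPM in heart, against 19.0 and 19.5 CPM in kidney (-2.13 ± 0.23), and so were Eno1 and Pgam1, of which Pgam1 was not called at -0.71 without frozen heart (adjusted p = 0.0509) and -0.93 without frozen kidney (adjusted p = 0.11) (limma). G6pc, the glucose 6-phosphatase that lets the kidney release glucose, had 0 reads in heart and 166 and 241 CPM in kidney, at least 776-fold lower in heart, and Pck1, which commits to glucose synthesis, had 0.531 and 0 CPM in heart, against 511 and 515 CPM in kidney (-11.59 ± 1.09). Khk, ketohexokinase, which starts fructose breakdown, had 2.88 and 3.51 CPM in heart, against 83.7 and 136 CPM in kidney (-5.05 ± 0.20). Glycogen genes had 10 of 14 higher and 2 lower (median 2.43), led by Ppp1r3a, the muscle targeting subunit of protein phosphatase, with 147 and 198 CPM in heart, against 0.136 and 0.0585 CPM in kidney (10.50 ± 0.68). Through heart libraries alone 2 of the 14 entered and through kidney libraries alone 1. Among the 11 that entered with both organs 8 were higher and 1 lower. The liver forms Gys2 and Pygl were the genes lower in heart (-5.61 ± 0.78 and -2.72 ± 0.29). Pyruvate entry and the citric acid cycle had 29 of 31 genes higher and 1 lower (median 1.54). Cs, citrate synthase, had 411 and 434 CPM in heart, against 71.1 and 88.5 CPM in kidney (2.41 ± 0.14), Idh2 449 and 678 CPM in heart, against 97.5 and 151 CPM in kidney (2.18 ± 0.19) and Pdk4, which shuts pyruvate dehydrogenase when fat is burned, 159 and 186 CPM in heart, against 31.8 and 11.2 CPM in kidney (3.19 ± 0.35). The gene lower in heart was Suclg2, the GTP-forming subunit of succinyl-CoA ligase (29.1 and 49.2 CPM in heart, against 60.0 and 98.0 CPM in kidney, -1.02 ± 0.21), while Sucla2, its ATP-forming partner, was higher (1.74 ± 0.17). Without the authors' scaling factors the cycle kept 18 genes called higher at a median of 0.72, and glycolysis 9 higher and 6 lower at a median of 0.01.

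The nuclear-encoded respiratory chain was higher in heart in each complex listed. Complex I had 36 of 36 genes called higher (median 1.47), complex III with cytochrome c 10 of 10 (1.43), complex IV 12 of 14 with 2 lower (1.65) and ATP synthase 16 of 17 (1.37), against 21.0% of all genes. In complex IV 3 genes entered through heart libraries alone, and of the 11 that entered with both organs 9 were higher and 2 lower. Ndufs1, the largest complex I subunit, had 243 and 436 CPM in heart, against 104 and 139.5 CPM in kidney (1.43 ± 0.17, limma adjusted p = 1.83e-04), Uqcrc1 303 and 382 CPM in heart, against 73.1 and 135 CPM in kidney (1.78 ± 0.17) and Atp5b, the catalytic beta subunit, 1396 and 1898 CPM in heart, against 603 and 953 CPM in kidney (1.10 ± 0.18). In each of these the heart libraries were above the kidney libraries, and the frozen library of an organ was above the FFPE library. Ndufa3, an accessory subunit, had the largest complex I difference (1.95 ± 0.24). Within complex IV the range was wider, from -1.98 (Cox6a1) to 10.05 (Cox6a2), and both ends were subunits that come in a muscle and a general form. Atpif1, the inhibitor of ATP synthase, had 34.4 and 61.7 CPM in heart, against 56.5 and 69.9 CPM in kidney and was not called. Without the authors' scaling factors the counts of genes called higher were 22 for complex I, 6 for complex III, 9 for complex IV and 8 for ATP synthase, all still with positive medians. Of the 13 mRNAs that the mitochondrial genome encodes 10 were called higher (median 1.04), but under quantile normalization 5 were, with a median of -0.27, and without scaling factors 2, with a median of 0.23. The count was 1 without frozen heart, 2 without FFPE kidney, 3 without frozen kidney. COX1 had 25255 and 26985 CPM in heart, against 10834 and 7312 CPM in kidney (1.55 ± 0.47, limma adjusted p = 0.0252), but was not called at 1.27 without frozen heart (adjusted p = 0.0911), 1.71 without FFPE kidney (adjusted p = 0.0977) and 1.39 without frozen kidney (adjusted p = 0.196), and under quantile normalization it turned sign, to -0.23. ND3 had 32.9 and 441 CPM in heart, against 173 and 170.4 CPM in kidney, with FFPE heart the lowest library and frozen heart the highest. Upstream regulators were mixed, with 3 of 11 higher, 2 lower and 6 not called (median 0.08), or without scaling factors 1 higher and 4 lower, with a median of -0.74. The count of genes lower was 1 with median centring, 1 without FFPE heart, 1 without frozen heart, 1 without FFPE kidney, 0 without frozen kidney. Perm1, a muscle regulator of oxidative genes, had 152 and 149 CPM in heart, against 5.53 and 4.33 CPM in kidney (4.93 ± 0.38), whereas Ppargc1a, a coactivator that raises mitochondrial content, had 103 and 91.6 CPM in heart, against 86.6 and 63.7 CPM in kidney and was not called. Ppard, a receptor for fatty acids, was lower in heart (-1.18 ± 0.33), but not called at -0.73 without frozen heart (adjusted p = 0.157) and -0.65 without frozen kidney (adjusted p = 0.219), and Esrrg (-0.62 ± 0.22) not at -0.36 without FFPE heart (adjusted p = 0.237), -0.64 without FFPE kidney (adjusted p = 0.165) and -0.61 without frozen kidney (adjusted p = 0.19) (limma).

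Several enzymes, transporters and structural proteins come in related forms, and the share of each form was taken from CPM per kilobase of exon. Of 22 pairs of related forms, 16 had the heart form called higher and the other form called lower, and in 20 of the 21 with a share in all libraries the lowest heart share lay above the highest kidney share. The pairs were chosen with these values known, so the counts are a description. How multiply mapped reads were counted is not given, so the share of a form whose reads also match other genes may be too low. Another 3 pairs, Mef2c with Hnf4a, Des with Krt18 and Slc8a1 with Atp2b4, set unrelated genes side by side, and in the first and second of these the shift follows from the choice of a marker of each organ. Cox6a2, the muscle form of a cytochrome c oxidase subunit, had 222 and 396 CPM in heart, against 0.136 and 0.468 CPM in kidney and Cox6a1, the general form, 15.1 and 18.6 CPM in heart, against 46.9 and 93.9 CPM in kidney. The share of Cox6a2 was 92.5% and 94.7% in heart, against 0.243% and 0.417% in kidney. Cox8b, another muscle subunit, had a share of 84.7% and 93.1% in heart, against 2.67% and 0.0754% in kidney beside Cox8a (-1.70 ± 0.34). Ckm, the muscle creatine kinase, had 431 and 593 CPM in heart, against 0.272 and 0.293 CPM in kidney (10.68 ± 1.19) and a share of 94.1% and 95.1% in heart, against 0.495% and 0.313% in kidney, next to Ckb, the brain form (-1.30 ± 0.23). Eno3, the muscle enolase, had a share of 95.3% and 95.4% in heart, against 3.31% and 1.95% in kidney, next to Eno1 (-1.90 ± 0.17). In these pairs 1 gene held most of the level in heart and the other in kidney. Pgam2, the muscle phosphoglycerate mutase, took 98.1% and 98.0% in heart, against 74.6% and 57.9% in kidney beside Pgam1 (-1.19 ± 0.29), and Pygm, the muscle glycogen phosphorylase, 99.65% and 99.61% in heart, against 32.5% and 36.0% in kidney beside Pygl. Gys1 held nearly the whole of its pair with Gys2, the liver glycogen synthase, in heart, against 68.2% and 58.5% in kidney. Both kidney libraries thus held more of the general form Gys1 than of Gys2. Slc25a4, the muscle carrier that swaps ADP for ATP, had 1268 and 1619.7 CPM in heart, against 52.7 and 73.7 CPM in kidney (4.52 ± 0.14) and took 93.8% and 92.5% in heart, against 21.7% and 16.5% in kidney beside Slc25a5 (-1.34 ± 0.15). Acacb, whose malonyl-CoA restrains fatty acid entry, took 97.3% and 97.0% in heart, against 59.6% and 60.3% in kidney beside Acaca (-1.55 ± 0.25). Cdh2, N-cadherin, took 99.94% and 99.93% in heart, against 4.03% and 5.87% in kidney beside Cdh1, E-cadherin (-9.60 ± 0.32), and Gja1 held nearly the whole of its pair with Gjb1, connexin 32, in heart, against 30.3% and 21.8% in kidney. Slc2a4 took 99.97% and 99.76% in heart, against 31.1% and 28.3% in kidney beside Slc2a2, the glucose transporter of the proximal tubule's blood side (-7.40 ± 0.94). Ckmt2 held nearly the whole of its pair with Ckmt1 in heart, against 0% and 0.927% in kidney. Fbp2, the muscle fructose bisphosphatase, did so beside Fbp1 in heart, against 2.95% and 2.20% in kidney, with 8.72 and 13.8 CPM in heart, against 4.21 and 6.26 CPM in kidney, and was itself not called, while Fbp1 was lower in heart (-11.50 ± 0.56). Actc1 took 91.8% and 89.2% in heart, against 0.111% and 0.290% in kidney beside Actb, cytoplasmic actin. Of the regulators of the sodium pump Fxyd1, phospholemman, took 98.8% and 98.8% in heart, against 0.247% and 0.394% in kidney beside Fxyd2, the kidney gamma subunit (-8.65 ± 0.72). Over the 10 genes of the pump and its regulators 4 were higher and 4 lower, with a median of 0.53 that was -0.28 without scaling factors and -0.09 with the stricter level rule. Over all genes tested 21.0% were called higher and 25.1% lower.

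Some pairs shifted in part. Cox7a1 took 66.7% and 63.0% in heart, against 4.83% and 4.55% in kidney, and both forms were higher in heart (6.12 ± 0.79 and 0.90 ± 0.17), as were Pfkm and Pfkl (4.28 ± 0.21 and 1.23 ± 0.22). Cpt1b took 18.0% and 20.5% in heart, against 0.696% and 0.197% in kidney beside Cpt1a, so that Cpt1a was the larger share as counted in each library. The Cpt1b share in heart rested on 71 and 51 reads. It may be too low, because how reads in exons shared with the readthrough gene Gm44502 were counted is not given. Rpl3l, a ribosomal protein of striated muscle, had 71.8 and 91.2 CPM in heart, against 0.634 and 0.936 CPM in kidney (6.67 ± 0.66) and took 65.3% and 70.1% in heart, against 1.72% and 1.75% in kidney, while Rpl3 had 32.2 and 32.9 CPM in heart, against 30.7 and 44.5 CPM in kidney and was not called. Shares overlapped between the organs for Ldhb, the lactate dehydrogenase of oxidative tissue, which took 75.2% and 81.0% in heart, against 79.9% and 73.3% in kidney. Ldhb itself was called higher in heart (0.44 ± 0.16, limma adjusted p = 0.0472), but not at 0.50 without FFPE heart (adjusted p = 0.0653), 0.39 without frozen heart (adjusted p = 0.139), 0.57 without FFPE kidney (adjusted p = 0.0842) and 0.31 without frozen kidney (adjusted p = 0.342), and without scaling factors it turned sign, to -0.38. Of the unrelated genes Slc8a1 took 84.2% and 88.9% in heart, against 89.6% and 87.4% in kidney beside Atp2b4, a calcium pump, with overlapping shares. Des, desmin of muscle, stood beside the epithelial keratin Krt18 (-5.78 ± 0.79) at 26.6% and 54.3% in kidney. Slc27a6, a fatty acid transporter of human heart, had 2 and 0 reads in heart and 0 in kidney.

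**Figure D5:**
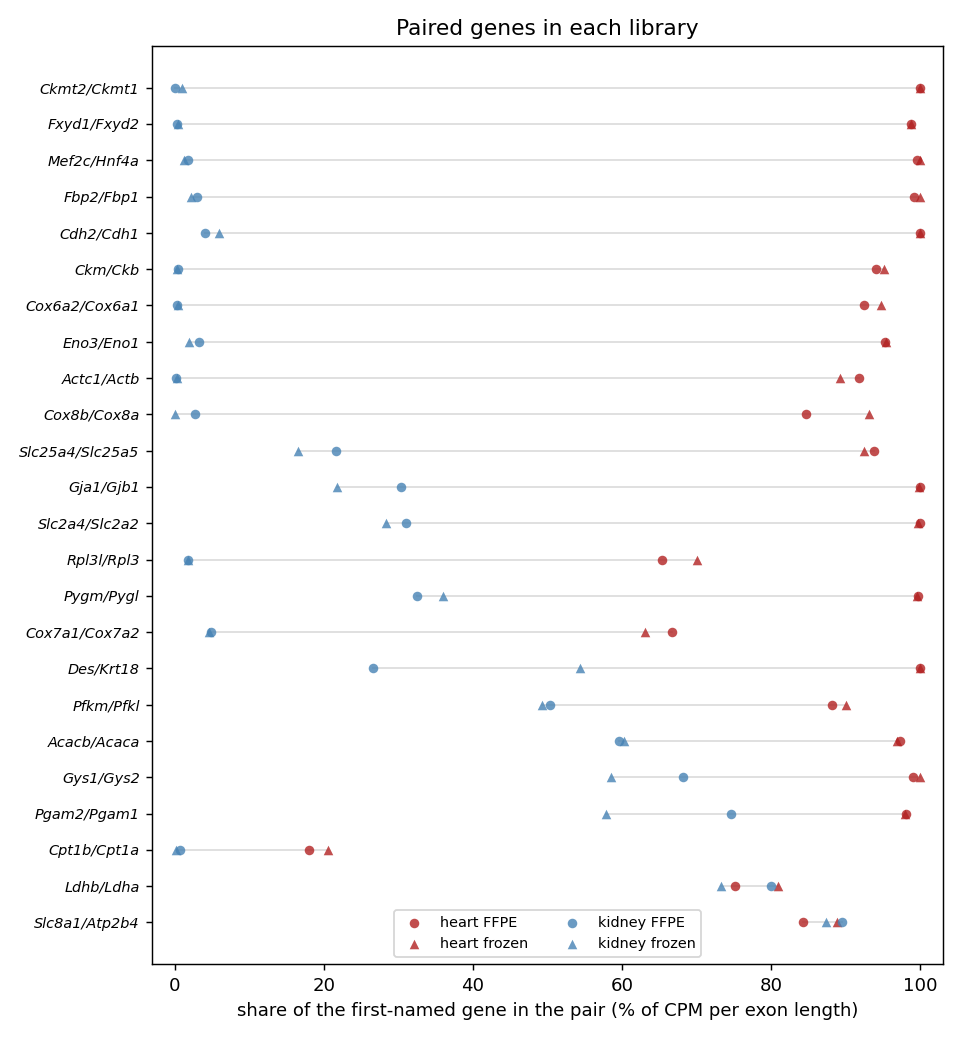
Share of the first-named gene of each of 24 pairs, as percent of the pair's CPM per exon length, in FFPE (circles) and frozen (triangles) heart (red) and kidney (blue), sorted by the gap between organs. Cox6a2 stood at 92.5% and 94.7% in heart, against 0.243% and 0.417% in kidney, and Ldhb at 75.2% and 81.0% in heart, against 79.9% and 73.3% in kidney.

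Amino acid metabolism had 24 of 26 genes that entered, from 28 listed, lower in heart and 0 higher (median -4.33), and 10 of the 26 entered through kidney libraries alone. Ass1, which the kidney uses to make arginine, had 1.29 and 1.17 CPM in heart, against 263 and 537 CPM in kidney (-8.21 ± 0.41, limma adjusted p = 2.17e-06), and Hgd, of tyrosine breakdown, 0 reads in heart and 73.2 and 99.2 CPM in kidney. Creatine genes had 2 of 7 higher, 4 lower and 1 not called. Through heart libraries alone 2 of the 7 entered and through kidney libraries alone 1. Among the 4 that entered with both organs 0 were higher and 3 lower. Gatm, which makes the creatine precursor, had 1.82 and 1.07 CPM in heart, against 186 and 264 CPM in kidney (-7.26 ± 0.31). The creatine kinases went both ways, with Ckm and Ckmt2 higher in heart and Ckb and Ckmt1, the ubiquitous mitochondrial form, lower (-5.56 ± 0.42 for Ckmt1). Ckm and Ckmt2 were the genes that entered through heart libraries alone, so their direction was set by the level rule. Branched-chain amino acid breakdown had 3 of 17 genes higher, 7 lower and 7 not called (median -0.42), a count that was 1 without frozen heart, 1 without frozen kidney for genes higher and 4 without FFPE kidney, 3 without frozen kidney for genes lower. Over all genes 21.0% were higher and 25.1% lower. Without scaling factors the list had 1 higher and 11 lower, with a median of -1.24, and with median centring 4 higher and 4 lower, with a median of -0.28. Ppm1k, the phosphatase that switches the pathway on, differed by 2.28 ± 0.21 and Aldh6a1 of valine breakdown by -1.75 ± 0.17. Ketone body genes had 1 of 7 higher and 2 lower (median -0.39), shares near those of all genes, and without scaling factors 1 higher and 6 lower, with a median of -1.20. The count of genes lower was 1 without FFPE kidney. Slc16a1, a carrier of lactate and ketones, was higher (2.13 ± 0.18), Bdh2 lower (-7.94 ± 0.42), as was Bdh1 (-1.32 ± 0.31) except at -1.18 without FFPE kidney (adjusted p = 0.0643) (limma). Oxct1, which lets a tissue burn ketones, had 437 and 703 CPM in heart, against 468 and 580.3 CPM in kidney and was not called.

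Cells between the main cells also differed. Of 17 endothelial genes 15 were called higher in heart and 0 lower (median 1.60), of 19 fibroblast and matrix genes 16 and 0 (1.75), and of 12 macrophage genes that entered from 13 listed 9 and 0 (1.93), beside 21.0% of all genes higher and 25.1% lower. Through heart libraries alone 1 fibroblast gene and 2 macrophage genes entered. Among those that entered with both organs 15 of 18 and 7 of 10 were higher. Without scaling factors 10, 11 and 7 genes of the endothelial, fibroblast and macrophage lists were higher and 1, 2 and 1 lower. Cdh5, VE-cadherin, had 131 and 141 CPM in heart, against 22.9 and 22.3 CPM in kidney (2.59 ± 0.18, limma adjusted p = 9.90e-06), and Vwf, the clotting factor, 89.8 and 117 CPM in heart, against 6.03 and 3.04 CPM in kidney (4.57 ± 0.39). Emcn, an endothelial mucin, had 19.1 and 23.8 CPM in heart, against 29.5 and 26.0 CPM in kidney and was not called. Among endothelial genes known from 1 organ, Meox2 and Tcf15 of heart capillaries were higher (6.91 ± 1.01 and 4.78 ± 0.76), and Plvap and Ehd3 of renal capillaries lower (-2.48 ± 0.24 and -3.21 ± 0.26). Of 7 genes of heart capillaries 3 were higher and 1, Car4 (-2.24 ± 0.55), lower, and of 6 of renal endothelium 4 were lower and 1, Aplnr (2.61 ± 0.63), higher. Through heart libraries alone 2 of the 7 and 1 of the 6 entered. Among the 5 heart capillary genes that entered with both organs 1 was higher and 1 lower, so no direction is read from that list. Car4 was not called at -2.12 without FFPE heart (adjusted p = 0.0655), -2.36 without frozen heart (adjusted p = 0.0508) and -1.64 without frozen kidney (adjusted p = 0.133), and Aplnr not at 2.21 without frozen heart (adjusted p = 0.0977) and 1.87 without FFPE kidney (adjusted p = 0.11) (limma). Dcn, decorin, had 158 and 309 CPM in heart, against 23.0 and 32.7 CPM in kidney (3.01 ± 0.38) and Col3a1 155 and 212 CPM in heart, against 47.8 and 60.6 CPM in kidney (1.75 ± 0.24). Smooth muscle and pericyte genes had 7 of 12 higher and 1 lower (median 0.78, or -0.03 without scaling factors), and the count of genes higher was 4 without FFPE heart, 4 without FFPE kidney, 4 without frozen kidney. Abcc9, a potassium channel regulator that cardiomyocytes also use, led with 4.07 ± 0.24, and Mylk, myosin light chain kinase, was lower (-2.00 ± 0.20). Lyve1 and Cd163 of resident macrophages differed by 5.62 ± 0.50 and 4.40 ± 0.55. Globin and heme genes of red cells were higher in heart in 4 of 4 (median 4.27), summed to 1855 and 2085 CPM in heart, against 62.0 and 205 CPM in kidney, with Hbb-bs at 898 and 1387 CPM in heart, against 41.2 and 140.3 CPM in kidney. Hba-a1 and Hba-a2 are near-identical, so their reads may be split by the counting. Of 9 lymphocyte genes 3 entered, with Igkc, an immunoglobulin chain, lower in heart (1.52 and 0.682 CPM in heart, against 10.2 and 5.62 CPM in kidney, -2.84 ± 0.51). Of 5 Schwann cell and neuron genes 2 entered and were higher, among them Snap25 (3.34 and 1.46 CPM in heart, against 0.589 and 0 CPM in kidney), which was not called at 3.86 without frozen heart (adjusted p = 0.0649) (limma). Snap25 entered through heart libraries alone. Adrenal genes, 8 in all, summed to 3.49 and 1.27 CPM in heart, against 5.71 and 0.293 CPM in kidney and lung genes, 4 in all, to 0.986 and 0 CPM in heart, against 0.0906 and 0 CPM in kidney. Of 7 hepatocyte genes 2 entered, and Ttr, transthyretin, was lower in heart (0.152 and 0 CPM in heart, against 6.62 and 32.7 CPM in kidney, -7.26 ± 1.41). Ttr entered through kidney libraries alone. Of 8 adipocyte genes Cidea alone entered and was called higher (4.50 ± 1.62), but not at 5.58 without FFPE heart (adjusted p = 0.0933), 3.42 without frozen heart (adjusted p = 0.285) and 0.95 without frozen kidney (adjusted p = 0.428) (limma).

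Splicing regulators differed in both directions. Of 16 genes 10 were called higher in heart and 4 lower (median 1.08), beside 21.0% and 25.1% of all genes. Through kidney libraries alone 2 of the 16 entered, and of the 14 that entered with both organs 10 were higher and 2 lower. Rbm20, which controls titin splicing, had 231 and 127 CPM in heart, against 5.57 and 4.51 CPM in kidney (5.09 ± 0.28, limma adjusted p = 3.12e-06), and Rbm24, a muscle regulator, 91.7 and 66.7 CPM in heart, against 1.22 and 0.293 CPM in kidney (6.95 ± 0.53). Esrp1 and Esrp2, the epithelial regulators, were lower in heart (-6.90 ± 0.96 and -6.96 ± 1.13), as were Ptbp1 (-1.46 ± 0.17) and Rbpms2 (-1.47 ± 0.24). Core clock genes had 5 of 15 that entered, from 16 listed, higher, 5 lower and 5 not called (median 0.33), or without scaling factors 1 higher and 7 lower, with a median of -0.49. The count of genes higher was 2 without FFPE heart, 2 without FFPE kidney, 0 without frozen kidney, and that of genes lower 3 without FFPE heart, 3 without frozen heart, 3 without FFPE kidney, 1 without frozen kidney. Hlf, an output gene of the clock, was lower with 18.6 and 12.6 CPM in heart, against 51.3 and 44.8 CPM in kidney (-1.64 ± 0.16), and Bhlhe41 higher with 4.85 and 4.78 CPM in heart, against 0.589 and 0.351 CPM in kidney, but not called at 2.94 without FFPE heart (adjusted p = 0.056) and 2.50 without frozen kidney (adjusted p = 0.0612) (limma). Immediate early genes, which rise fast after many stimuli, had 6 of 10 that entered, from 11 listed, higher (median 1.01), but 1 higher and 1 lower without scaling factors. The count of genes higher was 3 without FFPE heart, 1 without frozen heart, 2 without FFPE kidney. Atf3 had 6.22 and 4.68 CPM in heart, against 1.09 and 0.585 CPM in kidney (2.72 ± 0.67), but was not called at 2.52 without FFPE heart (adjusted p = 0.0778), 2.92 without frozen heart (adjusted p = 0.051) and 2.22 without frozen kidney (adjusted p = 0.095) (limma). Ribosomal protein genes had 30 of 80 higher and 0 lower (median 0.40), but without scaling factors 1 higher and 17 lower (median -0.41), and with median centring 46 higher. The count of genes higher was 16 without frozen heart, 15 without FFPE kidney, 10 without frozen kidney. Next to Rpl3l the largest difference was that of Rps29 (1.28 ± 0.18), and many have near-identical pseudogenes that can take their reads.

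Opposite differences of over 1 log2 unit in FFPE and frozen tissue were found in 18 genes. By the size of the smaller difference Dkk3, Rnu12, Snora75, ND3, Gm12238 and Phxr4 came first, of which Rnu12 is a small nuclear RNA and Snora75 and Gm12238 are annotated as small nucleolar RNAs. Dkk3, a secreted protein on the atrial list, had 68.0 and 1.75 CPM in heart, against 11.4 and 11.8 CPM in kidney, so that FFPE heart was the highest and frozen heart the lowest library. Snora75 had 12.9 and 8.09 CPM in heart, against 38.3 and 1.46 CPM in kidney. None of the 6 was called. The 5 sex-linked genes were not called either. Xist had 353 and 0.682 CPM in heart, against 697 and 0.0585 CPM in kidney, with both FFPE libraries far above both frozen libraries.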

How the data were processed

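Total RNA of mouse organs was extracted with Trizol, FFPE tissue after removal of paraffin, and sheared by ultrasound, per the labels' protocols. The submitters' processing notes name HISAT2, featureCounts, limma and mm10, without versions or settings. The authors deposited log2 values per gene, each log2 of CPM with 0.5 reads added over a scaled library size. Whole reads were recovered from 100% of these values (tolerance 1e-06), with scaling factors of 0.832 and 0.500 in heart and 1.42 and 0.912 in kidney, and CPM were recomputed from them. Reads assigned to genes ranged from 15593121 to 20526813 over the 4 libraries. How multiply mapped reads and strand were treated is not stated.

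Differences were fitted with limma 3.58.1 (R 4.3.3) on the deposited values of all 8 libraries, with organ and preservation as terms, 3 residual degrees of freedom and a variance trend with 5.51 prior degrees of freedom, and adjusted by Benjamini-Hochberg at 0.05. The code of the fit was run on simulated counts with few changed genes and no effect of preservation, so that run says little about these libraries. An interaction of organ and preservation leaves no residual degrees of freedom, so FFPE and frozen differences stand side by side without a test. Exon lengths for pairs came from the GENCODE annotation. Promoters came from RefSeq, in which 25275 genes (93.0%) matched. Named genes are the 15 largest differences in each direction, up to 6 members per list by size with called exceptions, all pair members, 6 genes of opposite sign and the sex-linked genes. Some genes are not reported here. Others were chosen after their values were seen. The lists and pairs were chosen with earlier results of these data known. Alternatives were no level rule or a stricter one, quantile, median or no scaling, a pseudocount of 5 CPM, the 4 libraries alone, no preservation term, no trend, robust variance, voom, a test against 1 log2 unit, and leaving out each library.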

Additional observations from a re-analysis of the deposited data

Results flagged for a closer look

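In 12 of the genes named FFPE and frozen tissue gave heart minus kidney differences of opposite sign. With 1 library per organ and preparation the difference between preparations was not tested, and small differences change sign easily. For Dkk3 the difference was 2.57 log2 units in FFPE tissue and -2.71 in frozen tissue. Dkk3 was in the atrial list, whose summed level was 998 CPM in FFPE heart and 19.8 CPM in frozen heart, and the part of atrial muscle in its difference was not tested. For ND3, a subunit of complex I that the mitochondrial genome encodes, the difference was -2.39 in FFPE tissue and 1.37 in frozen tissue. The small nuclear RNA Rnu12 had -1.69 in FFPE tissue and 1.78 in frozen tissue. The small nucleolar RNA Snora75 had -1.57 in FFPE tissue and 2.45 in frozen tissue, and Gm12238, of the same class, -1.30 in FFPE tissue and 1.51 in frozen tissue. Phxr4, a long noncoding RNA, had 1.23 in FFPE tissue and -1.24 in frozen tissue.

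Prlr, a gene known as higher in female kidney, had a difference of -3.87 in FFPE tissue and 0.56 in frozen tissue, Xist -0.98 in FFPE tissue and 3.06 in frozen tissue, where it had 7 reads in heart and 1 in kidney, and Ddx3y -0.21 in FFPE tissue and 1.01 in frozen tissue. The part of sex in these was not tested. The ketone enzyme Oxct1 had -0.10 in FFPE tissue and 0.28 in frozen tissue, Rpl3 0.07 in FFPE tissue and -0.43 in frozen tissue and Slc8a1 -0.06 in FFPE tissue and 0.57 in frozen tissue.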

How the results depend on the processing

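Of 219 called genes named here none of the 29 with the largest differences lost its call or turned sign under any of the 16 alternatives. Those 29 were picked from these values for their size, so this says little about smaller differences. The other called genes named lost a call 101 times over all alternatives, and COX1 under quantile normalization and Ldhb without scaling factors turned sign. Counts of genes higher and lower in heart were 2871 and 3424. Without the authors' scaling factors they were 1310 and 6924, so that 15.9% of calls were higher in heart against 45.6% with them, and quantile normalization gave 54.4%. Tested against 1 log2 unit they were 1134 and 1715. Leaving out 1 library at a time gave 1918 to 2418 genes higher and 2339 to 3207 lower, with 4209 to 5123 of the 6295 calls kept in the same direction and 0 turned. A lone library of an organ is then assumed to vary like the others. The correlation of FFPE and frozen differences was 0.813 without a level rule, where genes near 0 reads enter. The cause of the other shifts was not tested. No paired analysis was possible because the labels give no replicate numbers, with 1 library per organ and preparation. Heart and kidney are matched by preservation instead, a term of the fit. On the 4 libraries alone that matched fit has 1 residual degree of freedom and called 6266 genes.

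Some named differences turned sign. Under quantile normalization these were Acadm (-0.13), COX1 (-0.23), Dkk3 (0.015), Oxct1 (-0.29), Phxr4 (0.58), Rnu12 (-0.80), Slc8a1 (-0.045) and Wnk1 (-0.042), under median centring Dkk3 (0.078) and Phxr4 (0.15), without scaling factors Acadm (-0.61), Ddx3y (-0.42), Gm12238 (-0.71), Kcnq1 (-0.16), Ldhb (-0.38), Npr3 (-0.14), Oxct1 (-0.73), Ppargc1a (-0.43), Rnu12 (-0.77), Slc8a1 (-0.56), Snora75 (-0.38) and Wnk1 (-0.53), on log2(CPM + 5) Dkk3 (0.42), Gm12238 (-0.079), Phxr4 (0.11), Snora75 (-0.13) and Xist (-0.40), and with voom on recovered reads Dkk3 (0.95), Gm12238 (-0.62), Phxr4 (0.55), Snora75 (-0.93) and Xist (-0.86). Leaving out 1 library at a time, differences crossed 0 for Acadm (-0.0048 to 0.43), Aqp1 (-1.20 to 0.29), Ddx3y (-1.70 to 2.50), Dkk3 (-2.52 to 2.38), Emcn (-0.81 to 0.058), Gm12238 (-1.36 to 1.57), ND3 (-2.56 to 1.54), Oxct1 (-0.16 to 0.34), Phxr4 (-0.89 to 0.89), Prlr (-3.81 to 0.50), Rnu12 (-1.74 to 1.83), Rpl3 (-0.60 to 0.24), Snora75 (-1.35 to 2.23), Wt1 (-1.42 to 0.15) and Xist (-1.89 to 3.97).

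Depth limits low genes: 3 reads were 0.136 to 0.292 CPM, and differences of genes without reads in an organ are bounds.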
